A study of Mus musculus with 5 samples.

Results

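The genes described here encode the machinery that removes the poly(A) tail and the cap of an mRNA and then degrades its body, together with the poly(A)-binding proteins and factors of nonsense-mediated decay that work with it. They were taken from a list of 50 named genes, chosen by what their proteins do, with earlier results of these data known. Of these, 46 had a probe set of their own among the 18195 genes that the array could name, and the probe set with the highest mean over the arrays stood for each gene. All 114 probe sets annotated to these 46 genes alone, of 45101 on the array, were examined. Cnot1, Btg3 and Lsm5 were reached only by probe sets that also match another gene, and Upf3b had no probe set under its name, so these 4 genes have no value here. The helicase listed as Skiv2l2 was measured under its present symbol, Mtrex.

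The mRNAs came from mouse NIH/3T3 fibroblasts, a cell line, into which retroviruses had brought pBSwitch and, with it, pSLHGC-MYC-AUF1 p42. Together these vectors express AUF1 p42, a protein that binds AU-rich elements of mRNAs, with a myc tag and under control of the drug mifepristone. Ribonucleoprotein immunoprecipitates (RNP-IPs) were collected from cell extracts on anti-c-myc beads. The 5 arrays, each 1 sample, held 2 RNP-IPs whose label is induced, from cells given 1 nM mifepristone for 24 h, 2 whose label is uninduced, from the same kind of cells without the drug, and 1 sample of total RNA. The RNP-IPs are called induced-labelled and uninduced-labelled RNP-IPs below. Carriers were selected with blasticidin, with mifepristone present during selection, so the uninduced cells had met the drug before. The sources used here do not give whether the total RNA was of induced cells. Each array was hybridized with an equal mass of amplified RNA, so that a signal is a share of the RNA in its sample, and a lower level of an mRNA in the cells and less of it on the beads cannot be told apart from an RNP-IP alone. The study reports a lower RNA concentration in RNP-IPs of control cells, which equal loading removes. A lower share therefore need not be a smaller amount on the beads.

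Most mammalian mRNAs are degraded after their poly(A) tail is shortened. PAN2-PAN3 and the CCR4-NOT complex carry the main cytoplasmic deadenylases, and proteins that bind AU-rich elements can bring these enzymes to an mRNA. After deadenylation the LSM ring binds the 3' end and promotes removal of the cap by DCP2, XRN1 degrades the uncapped body from its 5' end, and the exosome degrades from the 3' end. The values below are the mRNAs of these proteins, on the deposited log2 scale, and not the proteins themselves.

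The targeted gene did not follow its label. Hnrnpd, which encodes AUF1, read 6.72 and 7.39 in the induced-labelled RNP-IPs, against 11.35 and 11.85 in uninduced-labelled RNP-IPs and 10.60 in total RNA (log2 fold change -4.21 against the 3 controls, adjusted p = 0.114 from limma). The sources used here do not give which probes would also detect the vector's mRNA. The study also made a western blot of the tagged protein and RT-PCR of RNP-IPs, both of which run the way of the labels, but these are not among the files analysed here. The groups are therefore named by their labels throughout, and every direction below rests on those labels. The arrays had medians between 3.77 and 3.83 on the log2 scale and 13168 to 13649 probe sets at or above a log2 signal of 5, below which a probe set was treated as near background. Of 8 fibroblast markers 7 were at 6 or above on every array and 1, Lum, was below 5 on every array. Of 18 markers of epithelial, blood, endothelial and neural cells 15 were below 5 on every array and 1, Epcam, was at 6 or above on every array, and their summed log2 signal lay between 67.2 and 70.4 over the 5 arrays. The other Epcam probe set was near background, between 3.27 and 3.56. Signal at the 5' end of Gapdh and Actb divided the RNP-IPs across the labels. For Gapdh it was 8.18 and 4.24 in the induced-labelled RNP-IPs 1 and 2, 3.65 and 7.81 in the uninduced-labelled RNP-IPs 1 and 2, and 6.93 in total RNA. The part of this difference in the results was examined only by leaving arrays out, by differences between RNP-IPs of like signal and by a crossed pairing.

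Few mRNAs of the decay machinery differed between induced-labelled RNP-IPs and the controls. A gene was called where its fold was 3 or more and its adjusted p, from limma and over all probe sets, was below 0.5, which is the study's own rule and a permissive one. Against the 2 uninduced-labelled RNP-IPs and total RNA pooled as 3 controls, 1 of the 46 genes was called higher (Lsm2) and 2 were called lower (Dis3 and Parn), while 1.32% of all genes were called higher and 2.36% lower. Against the uninduced-labelled RNP-IPs alone, 2 were called higher (Lsm2 and Lsm3) and the same 2 lower, where 1.38% of all genes were called higher and 2.65% lower. In each case the decay genes called lie within 1 or 2 genes of those shares. At an adjusted p below 0.05 in limma 0 of the 46 genes passed in any comparison, as did 0 of all probe sets, and 8 and 10 of the 46 (17.4% and 21.7%) had an unadjusted p below 0.05 in these 2 comparisons, against 13.4% and 14.3% of all genes.

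The median log2 fold change of the 46 genes was -0.45 against the 3 controls, where the median of all genes was 0, and 32 of the 46 lay below 0. Genes with a higher signal tended to negative values on these arrays, and many of the 46 belong to them. Among genes with a mean log2 signal of at least 6, the median was -0.50 for 34 of the decay genes and -0.15 for all 6401 such genes, and 73.5% of these decay genes and 58% of all 6401 lay below 0. In the same comparison 20.6% of the 34 and 25.7% of the 6401 had an unadjusted p below 0.05 in limma. Against the uninduced-labelled RNP-IPs alone these shares were 23.5% and 27.7%. Against the 3 controls 0 of the 34 were called higher and 5.88% lower, where 2.72% and 5.78% of the 6401 were.

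**Figure D1:**
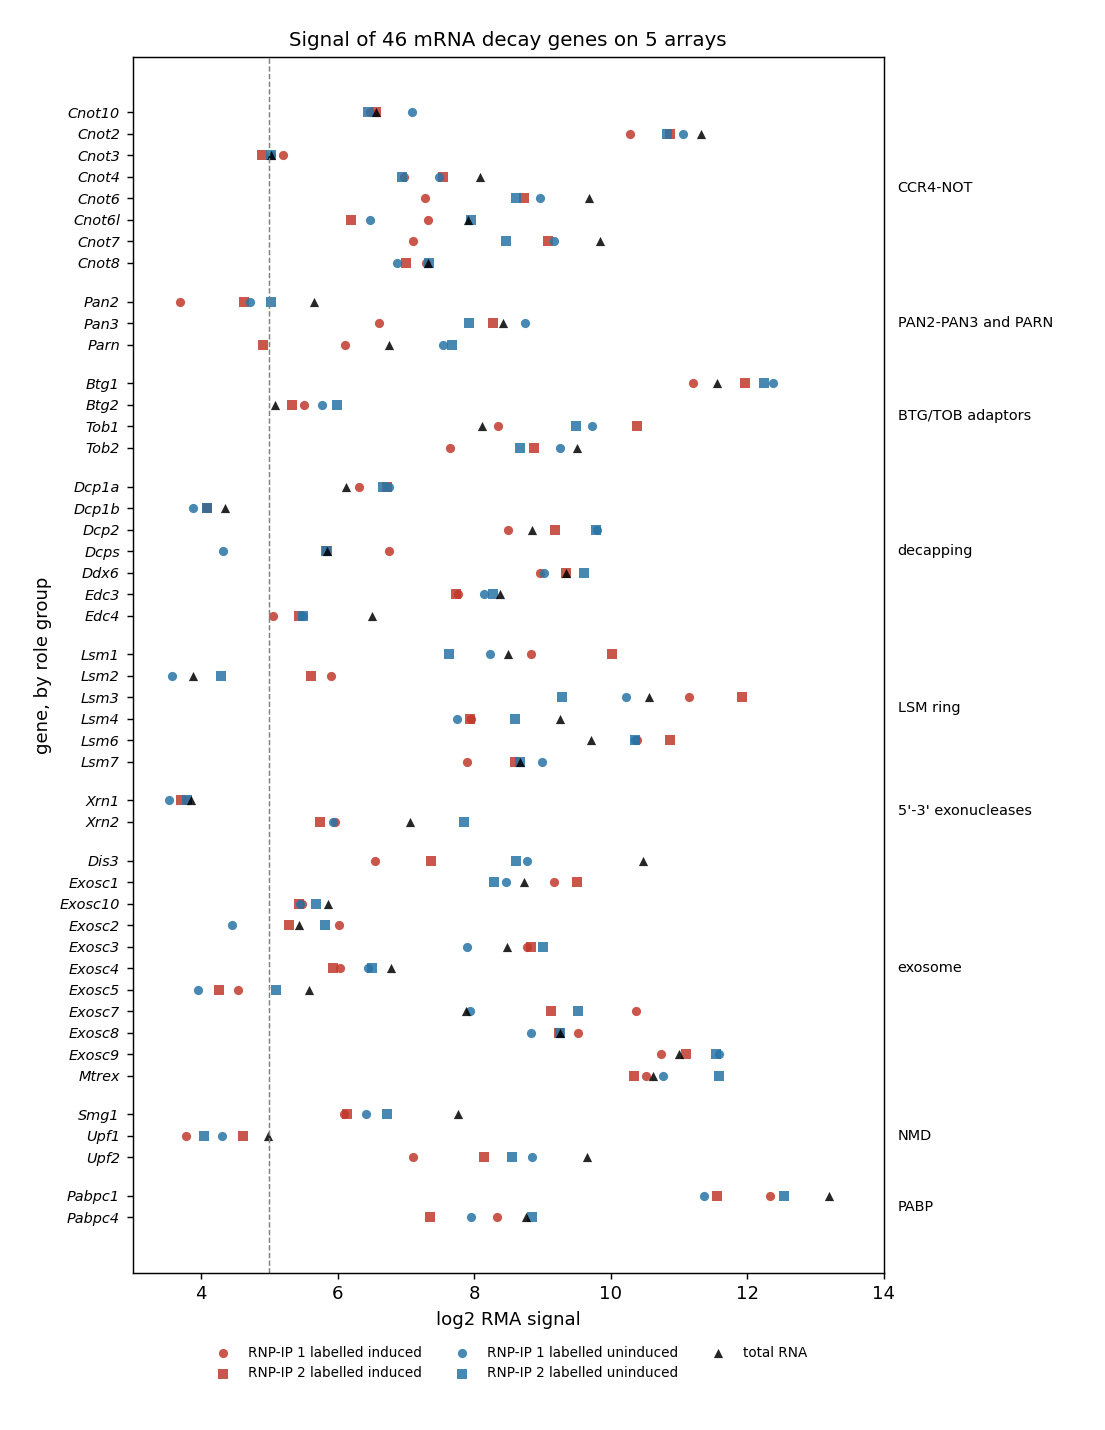
Log2 signal (horizontal axis) of each of the 46 measured mRNA decay genes (rows, grouped by role) on each of the 5 arrays, with induced-labelled RNP-IPs in red, uninduced-labelled RNP-IPs in blue and total RNA in black, and a dashed line at the log2 signal of 5. The red points of Dis3 and Parn lie left of the 3 control points, and those of Lsm1, Lsm2 and Lsm3 lie right of them.

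Both induced-labelled RNP-IPs lay above all 3 controls for 5 of the 46 genes, or 10.9%, against 12% of all genes. These were Lsm1, Lsm2, Lsm3, Lsm6 and Exosc1, so that 4 of the 5 were LSM ring genes. Both lay below all controls for 10 genes, or 21.7%, against 13.4% of all genes. These were Dis3, Edc3, Edc4, Exosc4, Lsm7, Mtrex, Pan2, Parn, Smg1 and Upf2. In 7 of the 46, or 15.2% (Dis3, Edc3, Edc4, Exosc4, Pan2, Smg1 and Upf2), the induced-labelled arrays were below the uninduced-labelled ones, and all of these below total RNA, without overlap, an order found in 6.1% of all genes. For Pan2 most of these signals were near background. A mean log2 signal of at least 6 was reached by 34 of the 46 genes but only 6401 of the 18195. The shares were not compared among genes of like signal, so they cannot be read as particular to the decay genes. The plot of signals by gene shows these orders array by array. Of the 46, Dcp1b, Upf1 and Xrn1 were below 5 on all 5 arrays, 7 were below it on some, and 36 were at or above it on every array.

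Among the deadenylases, Parn was called lower and the catalytic genes of CCR4-NOT were not called on their main probe sets. Parn encodes the poly(A)-specific ribonuclease, which trims the 3' ends of many noncoding RNAs. Its log2 signal was 6.11 and 4.91 in the induced-labelled RNP-IPs, against 7.54 and 7.67 in uninduced-labelled RNP-IPs and 6.76 in total RNA. The groups did not overlap, and 1 of the induced-labelled arrays was below the level of 5. The log2 fold change was -1.81 against the 3 controls (SE 0.51, adjusted p = 0.342, limma) and -2.10 against the uninduced-labelled RNP-IPs (SE 0.51, adjusted p = 0.343, limma). The other Parn probe set, near background on most arrays, gave -0.32 and was not called. The call against the 3 controls was lost when induced-labelled RNP-IP 2 was left out (log2 fold change -1.21), and also without uninduced-labelled RNP-IP 1 or 2 (-1.70 and -1.64).

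Pan2, the nuclease of PAN2-PAN3, had log2 signals of 3.69 and 4.63 in the induced-labelled RNP-IPs, 4.72 and 5.02 in uninduced-labelled RNP-IPs and 5.65 in total RNA. The groups stood in 3 separate steps, but induced-labelled RNP-IPs were near background, so that only a bound of at least 1.09-fold lower can be given, and the gene was not called. Pan3, which tethers the nuclease to the poly(A)-binding protein, had 6.60 and 8.27 in the induced-labelled RNP-IPs, 8.74 and 7.92 in uninduced-labelled RNP-IPs and 8.42 in total RNA. Its RNP-IPs overlapped between the labels (log2 fold change -0.93, SE 0.61, adjusted p = 0.685, limma). Its other 3 probe sets gave between -0.43 and -0.35 and were not called.

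CCR4-NOT carries a pair of nuclease types, and each has a pair of paralogous genes in mammals, Cnot6 with Cnot6l and Cnot7 with Cnot8. On the main probe set of Cnot7, 1423641_s_at, signals were 7.10 and 9.08 in the induced-labelled RNP-IPs, against 9.17 and 8.47 in uninduced-labelled RNP-IPs and 9.84 in total RNA. The labels overlapped, and the log2 fold change was -1.07 against the 3 controls (SE 0.78, adjusted p = 0.694, limma). A second Cnot7 probe set, 1430519_a_at, showed the opposite. It read 9.91 and 10.78 in the induced-labelled RNP-IPs, against 7.05 and 6.21 in uninduced-labelled RNP-IPs and 6.52 in total RNA. Here both induced-labelled arrays stood far above all controls, at a fold change of 3.75 on the log2 scale (SE 0.40, adjusted p = 0.11, limma), which is 13.5-fold, and it was called higher against the uninduced-labelled RNP-IPs (3.72) and against total RNA (3.82) as well. The third probe set of Cnot7 was near background on every array. The study lists Cnot7 among its enriched mRNAs at the same 13.5-fold, and its RT-PCR of RNP-IPs also found Cnot7 enriched.

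The difference of 4.82 on the log2 scale between the bright probe sets of Cnot7 was wide for this array. Over 1898 genes with several probe sets at a mean log2 signal of 6 or more, the median spread was 0.68, and 9 genes, Cnot7 included, had a spread as wide as that of Cnot7. Among the decay genes 13 could be compared in this way, with a median spread of 0.30 and, after Cnot7, a widest spread of 0.83. Which transcripts each probe set detects was not tested.

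**Figure D2:**
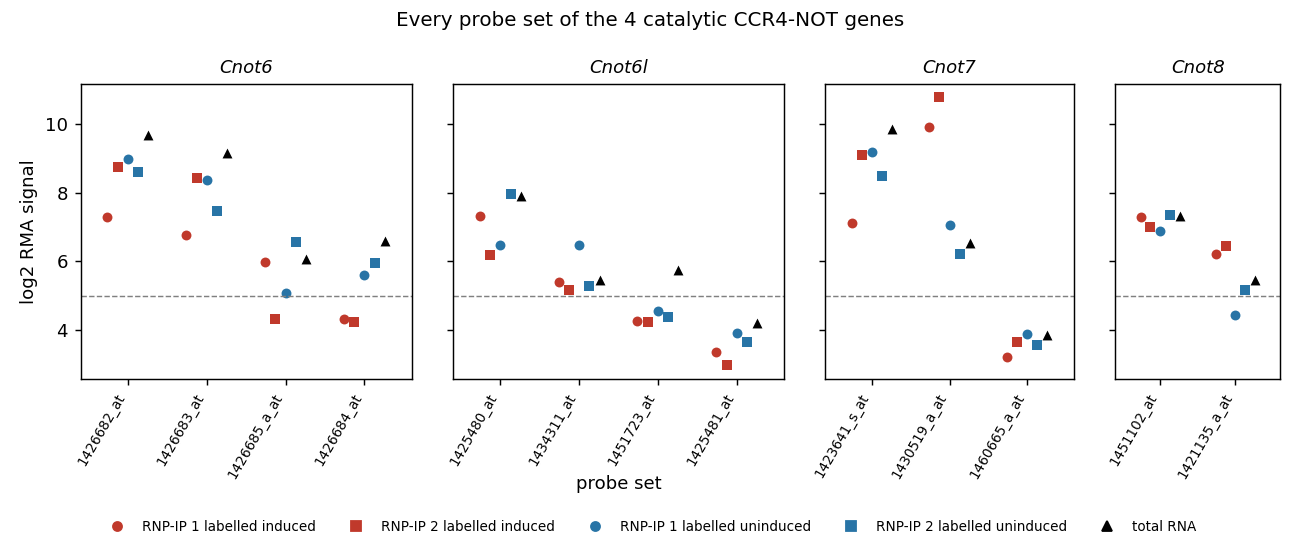
Log2 signal (vertical axis) on each array for every probe set (horizontal axis) of Cnot6, Cnot6l, Cnot7 and Cnot8, with induced-labelled RNP-IPs in red, uninduced-labelled RNP-IPs in blue and total RNA in black, and a dashed line at the log2 signal of 5. For 1430519_a_at of Cnot7 the red points, 9.91 and 10.78, stand above the others, while for 1423641_s_at they do not.

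Cnot6 had 7.28 and 8.73 in the induced-labelled RNP-IPs, 8.97 and 8.61 in uninduced-labelled RNP-IPs and 9.68 in total RNA on its main probe set. Induced-labelled RNP-IP 2 lay between uninduced-labelled RNP-IPs, and the gene was not called (log2 fold change -1.08, SE 0.59, adjusted p = 0.679, limma). All 4 Cnot6 probe sets had negative values, and the dimmest, 1426684_at, was called lower, with 4.33 and 4.22 in the induced-labelled RNP-IPs, 5.61 and 5.95 in uninduced-labelled RNP-IPs and 6.59 in total RNA, or at least 2.07-fold lower. Cnot6l had 7.32 and 6.19 in the induced-labelled RNP-IPs, 6.48 and 7.95 in uninduced-labelled RNP-IPs and 7.91 in total RNA, with overlap between the labels and a fold change of -0.69 on the log2 scale (SE 0.66, adjusted p = 0.743, limma). Its other 3 probe sets gave between -0.75 and -0.47. Cnot8 gave -0.03, and its second, dimmer probe set gave 1.32 (adjusted p = 0.313, limma), which was not called. That probe set read 6.22 and 6.43 in the induced-labelled RNP-IPs, 4.43 and 5.15 in uninduced-labelled RNP-IPs and 5.44 in total RNA. Both induced-labelled arrays were above all controls, and the 1.54 against the uninduced-labelled RNP-IPs (adjusted p = 0.297, limma) was not called either. The other genes of the complex, Cnot2 and Cnot3 of its NOT module, the ubiquitin ligase Cnot4 and Cnot10, had values between -0.49 and 0.03, and 0 of the 8 CCR4-NOT genes were called.

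The BTG and TOB proteins bind the CAF1-type nucleases encoded by Cnot7 and Cnot8 and link them to mRNAs. Of 4 measured genes 0 were called. Tob1 read 8.35 and 10.39 in the induced-labelled RNP-IPs, 9.72 and 9.49 in uninduced-labelled RNP-IPs and 8.12 in total RNA. The induced-labelled arrays lay on both sides of the uninduced-labelled ones, 2.04 apart on the log2 scale. Tob2 had 7.64 and 8.87 in the induced-labelled RNP-IPs, 9.26 and 8.67 in uninduced-labelled RNP-IPs and 9.51 in total RNA (log2 fold change -0.89, SE 0.49, adjusted p = 0.679, limma), and its other 4 probe sets, dimmer and not called, gave between -0.61 and 0.27. For Btg1, an antiproliferative member, the signals were 11.21 and 11.97 in the induced-labelled RNP-IPs, 12.38 and 12.24 in uninduced-labelled RNP-IPs and 11.56 in total RNA, and its other 2 probe sets gave log2 fold changes of -0.25 and -0.22. Total RNA lay between the induced-labelled RNP-IPs, and the log2 fold change was -0.47 against the 3 controls and -0.72 against the uninduced-labelled RNP-IPs.

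The LSM ring held both genes that were called higher. Lsm1 to Lsm7 form the cytoplasmic ring that takes part in decapping, and all of them except Lsm1 also belong to the nuclear ring on U6 RNA. Lsm3 had log2 signals of 11.15 and 11.92 in the induced-labelled RNP-IPs, against 10.22 and 9.28 in uninduced-labelled RNP-IPs and 10.56 in total RNA. Both induced-labelled arrays were above all controls. Lsm3 was called higher against the uninduced-labelled RNP-IPs, with a fold change of 1.78 on the log2 scale (SE 0.51, adjusted p = 0.403, limma), and with 1.51 (SE 0.50, adjusted p = 0.423, limma) missed the fold of 3 against the 3 controls. The study lists Lsm3 among its enriched mRNAs at 3.4-fold. Here its fold was 3.44 against the uninduced-labelled RNP-IPs and 2.85 against the 3 controls.

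For Lsm2 the signals were 5.91 and 5.61 in the induced-labelled RNP-IPs, against 3.57 and 4.29 in uninduced-labelled RNP-IPs and 3.88 in total RNA. The groups were well apart, with every control near background, so that the difference is given as at least 1.69-fold higher. The measured log2 fold change was 1.85 against the 3 controls (SE 0.25, adjusted p = 0.143, limma), and leaving out any RNP-IP kept the call, with values between 1.67 and 2.03. The bound lies below the fold of 3 that the call asks for. Lsm2 is also on the study's list of enriched mRNAs, at 3.6-fold.

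Lsm1 had 8.83 and 10.02 in the induced-labelled RNP-IPs, 8.23 and 7.63 in uninduced-labelled RNP-IPs and 8.49 in total RNA. Both induced-labelled arrays were above the controls, but its log2 fold change of 1.31 (SE 0.48, adjusted p = 0.48, limma) was too small for a call. Without induced-labelled RNP-IP 1, Lsm1 was called, with 1.90 (adjusted p = 0.384, limma). Lsm6 read 10.39 and 10.86 in the induced-labelled RNP-IPs, 10.35 and 10.35 in uninduced-labelled RNP-IPs and 9.71 in total RNA, a narrow separation with a log2 fold change of 0.49. Lsm4 and Lsm7 did not share this direction, with -0.58 and -0.53. The ring was thus divided, with 4 of its 6 measured genes above 0 and 2 below, and its median of 0.90 was the highest of the 9 role groups.

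The decapping enzyme, its activators and Dcps, grouped with them, were not called in any comparison, 0 of 7 genes. Dcp2, the decapping enzyme, had 8.49 and 9.19 in the induced-labelled RNP-IPs, against 9.80 and 9.79 in uninduced-labelled RNP-IPs and 8.84 in total RNA. It was below both uninduced-labelled arrays but not below total RNA, with log2 fold changes of -0.96 against the uninduced-labelled RNP-IPs (SE 0.29, adjusted p = 0.437, limma) and 0.00 against total RNA. Edc4, a scaffold of the decapping complex, read 5.05 and 5.44 in the induced-labelled RNP-IPs, 5.49 and 5.49 in uninduced-labelled RNP-IPs and 6.50 in total RNA. These are ordered without overlap, though the step between the RNP-IPs is small (-0.24).

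Dcps, the scavenger enzyme that hydrolyses the cap left after decay by the exosome, had 6.75 and 5.84 in the induced-labelled RNP-IPs, 4.32 and 5.83 in uninduced-labelled RNP-IPs and 5.84 in total RNA. Induced-labelled RNP-IP 2 matched total RNA, and the log2 fold change of 0.96 (SE 0.64, adjusted p = 0.686, limma) was not called. Dcp1a, the helicase Ddx6 and Edc3, which all act with Dcp2, gave 0.01, -0.17 and -0.51, and Dcp1b was near background.

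Of all 46 genes, the exonuclease gene Dis3 had the largest log2 fold change against the 3 controls. Dis3 encodes the catalytic subunit of the exosome, whose core otherwise has no nuclease activity in mammals. Its log2 signals were 6.55 and 7.37 in the induced-labelled RNP-IPs, against 8.78 and 8.62 in uninduced-labelled RNP-IPs and 10.47 in total RNA. The arrays stood in 3 separate steps. Dis3 was called lower in all 4 comparisons, with log2 fold changes of -2.33 against the 3 controls (SE 0.72, adjusted p = 0.387, limma), -1.74 against the uninduced-labelled RNP-IPs (SE 0.35, adjusted p = 0.289, limma) and -3.51 against total RNA (SE 0.43, adjusted p = 0.147, limma), and of -1.77 for the uninduced-labelled RNP-IPs against total RNA (SE 0.43, adjusted p = 0.381, limma).

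The first of these is 5.03-fold lower. Between RNP-IPs with like signal at the 5' end of Gapdh, the Dis3 difference was -2.07 for induced-labelled RNP-IP 1 against uninduced-labelled RNP-IP 2 and -1.41 for induced-labelled RNP-IP 2 against uninduced-labelled RNP-IP 1. The same differences for Parn were -1.56 and -2.63, and those for Lsm3 were 1.87 and 1.70. As the labels did not overlap for these genes, any such pairs give the same direction, and only the sizes differ. The Dis3 call against the 3 controls was lost without induced-labelled RNP-IP 1 (-1.92) and without uninduced-labelled RNP-IP 1 or 2 (-2.59 and -2.67), where the adjusted p of limma lay between 0.54 and 0.692. With only the RNP-IPs of high or only those of low signal at the 5' end of Gapdh and Actb beside total RNA, Dis3 was not called either (adjusted p = 0.607 and 0.808, limma).

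Of 11 measured genes of the exosome Dis3 was the only 1 called against the 3 controls, and their median log2 fold change was -0.22. Exosc1, a cap protein of the core, had 9.17 and 9.50 in the induced-labelled RNP-IPs, against 8.47 and 8.29 in uninduced-labelled RNP-IPs and 8.73 in total RNA. The induced-labelled arrays were above all controls, by a fold change of 0.84 on the log2 scale (SE 0.18, adjusted p = 0.255, limma), which is below the fold of 3. Exosc7, of the ring below the cap, read 10.37 and 9.12 in the induced-labelled RNP-IPs, 7.94 and 9.52 in uninduced-labelled RNP-IPs and 7.88 in total RNA, with overlap between the labels and a fold change of 1.30 on the log2 scale (SE 0.73, adjusted p = 0.683, limma). The other core genes Exosc2, Exosc3, Exosc4, Exosc5, Exosc8 and Exosc9, the nuclear exonuclease Exosc10 and the helicase Mtrex, which feeds RNA to the nuclear exosome, gave values between -0.60 and 0.42.

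Xrn1, the cytoplasmic 5' to 3' exonuclease, was near background on every array, so nothing can be said of its change. Xrn2, its nuclear counterpart, had 5.97 and 5.75 in the induced-labelled RNP-IPs, 5.93 and 7.85 in uninduced-labelled RNP-IPs and 7.06 in total RNA. The uninduced-labelled arrays were 1.92 apart on the log2 scale and 1 of them lay among induced-labelled RNP-IPs, and the gene was not called (log2 fold change -1.09, SE 0.63, adjusted p = 0.683, limma). Without uninduced-labelled RNP-IP 1 it was called lower, with -1.60.

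Against total RNA alone, Smg1 and Upf2 of nonsense-mediated decay were called lower beside Dis3. In this comparison the induced-labelled RNP-IPs had 1 of the 46 genes called higher (Lsm2) and 3 lower (Dis3, Smg1 and Upf2), against 2.03% of all genes higher and 4.5% lower. The uninduced-labelled RNP-IPs had 0 higher and 1 lower (Dis3) against total RNA, where 1.26% of all genes were higher and 1.36% lower. The unadjusted p from limma was below 0.05 for 8 and 5 of the 46 genes (17.4% and 10.9%) in these 2 comparisons, against 17.3% and 13% of all genes. Both comparisons share the total RNA sample and rest on that 1 array, taken to vary like the RNP-IPs.

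Upf2, which joins the exon junction complex to UPF1, had 7.11 and 8.14 in the induced-labelled RNP-IPs, 8.85 and 8.56 in uninduced-labelled RNP-IPs and 9.65 in total RNA. The groups were in 3 separate steps, with log2 fold changes of -2.02 for the induced-labelled RNP-IPs (SE 0.55, adjusted p = 0.315, limma) and -0.94 for uninduced-labelled RNP-IPs against total RNA. Against the 3 controls it gave -1.39 (SE 0.50, adjusted p = 0.461, limma) and was not called, but it was without induced-labelled RNP-IP 2 (-1.91).

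Smg1, the kinase that phosphorylates UPF1, read 6.09 and 6.14 in the induced-labelled RNP-IPs, 6.42 and 6.72 in uninduced-labelled RNP-IPs and 7.77 in total RNA. The RNP-IPs lay close to each other and well below total RNA, and the log2 fold change was -1.66 for induced-labelled RNP-IPs (SE 0.16, adjusted p = 0.125, limma) and -1.20 for uninduced-labelled RNP-IPs against total RNA. Upf1 itself was near background on every array. For neither gene was the difference between the labels itself called (-1.08 for Upf2 and -0.46 for Smg1). Further probe sets of Upf2, Smg1, Xrn1, Tob1, Dcp2, Dcps and Lsm1 were near background in both groups.

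**Figure D3:**
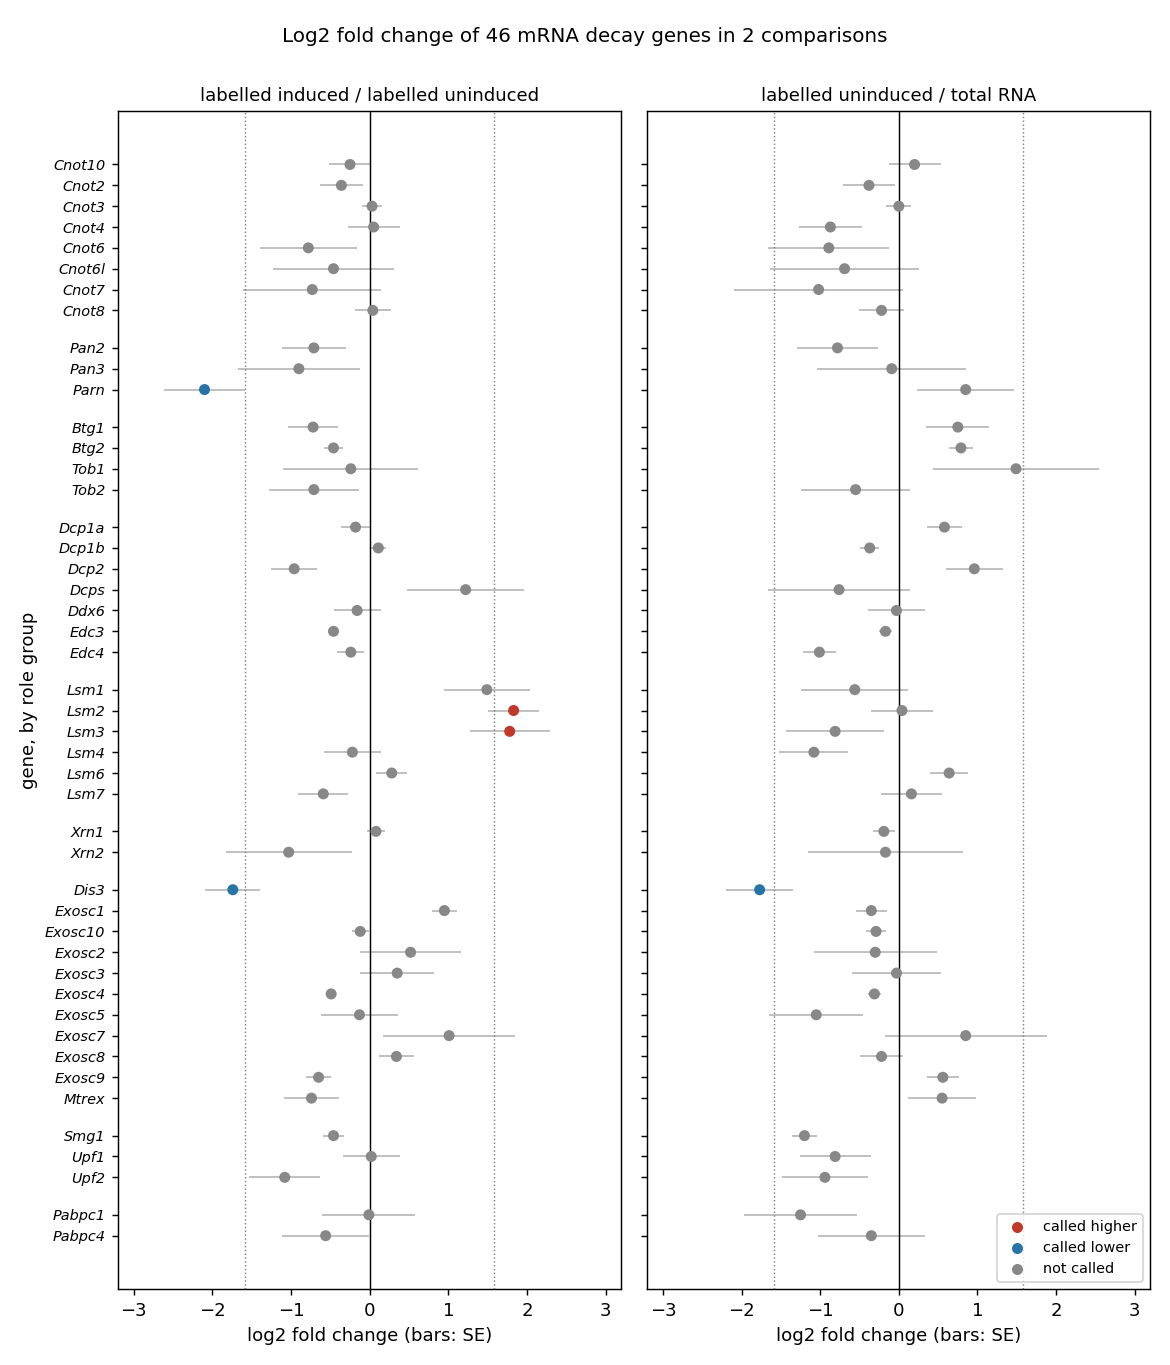
Log2 fold change (horizontal axis) with its SE (bars) of each of the 46 genes, for induced-labelled RNP-IPs over uninduced-labelled RNP-IPs (left) and for uninduced-labelled RNP-IPs over total RNA (right), with dotted lines at a fold of 3 and called genes coloured. Lsm2 and Lsm3 are called higher and Dis3 and Parn lower on the left, and Dis3 alone is called, lower, on the right.

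The cytoplasmic poly(A)-binding proteins cover the tail and are displaced as it is shortened. Pabpc1, the main one, had 12.33 and 11.55 in the induced-labelled RNP-IPs, 11.36 and 12.54 in uninduced-labelled RNP-IPs and 13.20 in total RNA. The RNP-IPs interleaved, with a log2 fold change of -0.01 between the labels, and all 4 were below total RNA without a call on this probe set. A second, dim probe set of Pabpc1 had 4.39 and 4.75 in the induced-labelled RNP-IPs, 4.42 and 4.10 in uninduced-labelled RNP-IPs and 6.71 in total RNA, and was called lower in both against total RNA, at least 3.28-fold in each case. Pabpc4 read 8.33 and 7.35 in the induced-labelled RNP-IPs, 7.96 and 8.84 in uninduced-labelled RNP-IPs and 8.76 in total RNA (log2 fold change -0.68, SE 0.45, adjusted p = 0.686, limma), and was not called.

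Replicates of 1 label were far apart for many of these genes, and in opposite ways in the RNP-IPs of different labels. The induced-labelled RNP-IPs were over 1 apart on the log2 scale for 10 of the 46 genes, and uninduced-labelled RNP-IPs for 8. The difference of RNP-IP 1 minus RNP-IP 2 had opposite signs in the induced-labelled RNP-IPs and uninduced-labelled RNP-IPs for 38 of the 46 genes and the same sign for 4. Across the 46 genes, which are not independent replicates and share the 4 arrays, the differences had a Pearson correlation of -0.75, and across all 45101 probe sets one of -0.50. The arrays that are alike in this way are also alike in signal at the 5' end of Gapdh and Actb, and the part of that in the differences was not tested.

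**Figure D4:**
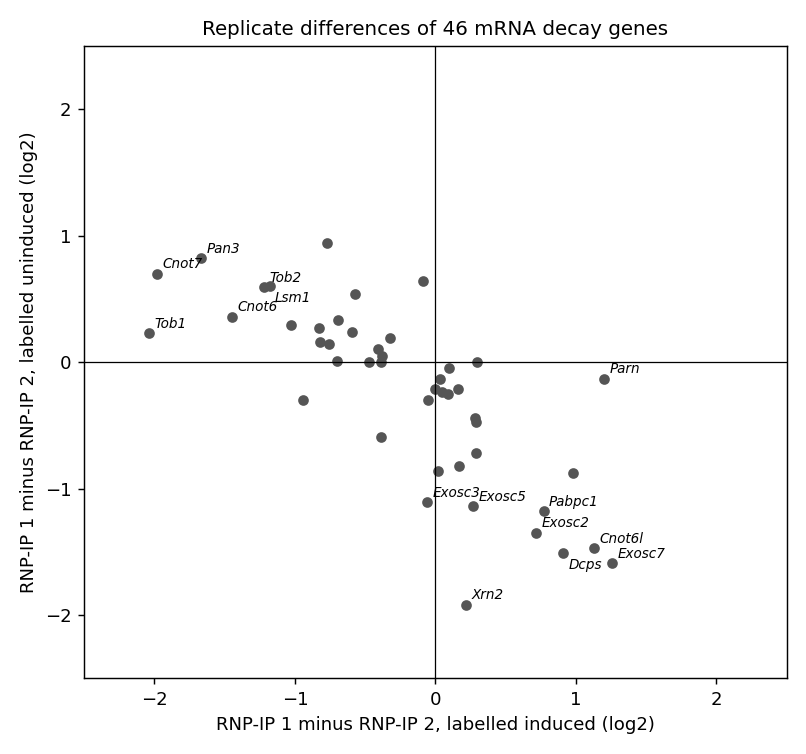
Difference between replicates on the log2 scale for each of the 46 genes, with RNP-IP 1 minus RNP-IP 2 of the induced label on the horizontal axis and RNP-IP 1 minus RNP-IP 2 of the uninduced label on the vertical axis. Most points lie in the upper left and lower right, with opposite signs for 38 genes, and Cnot7, Tob1 and Pan3 lie far to the left.

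A further 60 genes of mRNA decay and its cofactors were listed, among them other deadenylases, exosome adaptors, exon junction factors, Argonaute and TNRC6 proteins and poly(A)-binding protein partners, of which 56 were measured. Against the 3 controls 1 of the 56 was called higher (1.79%) and 4 lower (7.14%), where 1.32% of all genes were called higher and 2.36% lower. Their median log2 fold change was -0.19, and 36 of the 56 (64.3%) lay below 0, against 49.3% of all genes. At an adjusted p below 0.05 in limma 0 passed, and 17 (30.4%) had an unadjusted p below 0.05, against 13.4% of all genes. These genes were listed with earlier results known, and nothing particular to the list is read from these shares. Paip1, a partner of the poly(A)-binding protein in translation, had 6.33 and 8.02 in the induced-labelled RNP-IPs, against 10.19 and 9.67 in uninduced-labelled RNP-IPs and 9.84 in total RNA. The groups were well apart, at a fold change of -2.72 on the log2 scale (SE 0.58, adjusted p = 0.248, limma), and its other 3 probe sets were near background.

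Ago2, the Argonaute that can cut its target, and Tnrc6a, which brings CCR4-NOT to Argonaute, were called lower. Their log2 fold changes were -1.85 and -1.59 (adjusted p = 0.262 and 0.258, limma). The other Ago2 probe sets differed less, with induced-labelled means of 4.59, 4.86 and 6.28 against 4.62, 5.32 and 7.24 in the 3 controls. The other Tnrc6a probe sets also had lower induced-labelled means, by differing amounts. The exception was a probe set near background on every array, with 4.05 against 3.52. Zcchc8, of the nuclear exosome targeting complex, was called lower with -1.64 (adjusted p = 0.207, limma). It read 5.49 and 6.25 in the induced-labelled RNP-IPs, 7.56 and 7.23 in uninduced-labelled RNP-IPs and 7.74 in total RNA, and its other probe set was near background. Etf1, the translation termination factor eRF1, was the gene called higher, with 10.00 and 9.94 in the induced-labelled RNP-IPs, 7.74 and 7.99 in uninduced-labelled RNP-IPs and 9.13 in total RNA (log2 fold change 1.68, SE 0.48, adjusted p = 0.353, limma). The other 5 probe sets of Etf1 were not called, with values between -0.52 and 1.13.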

How the data were processed

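RNA of 2 induced-labelled RNP-IPs, 2 labelled uninduced and 1 total RNA sample was amplified by two-cycle labelling and hybridized to Affymetrix mouse GeneChip arrays. The authors normalized the signals by RMA (version not given in the sources used here) and deposited log2 values for 45101 probe sets, which were used as deposited. The values carry no counts, so the number of arrays limits the precision. The labels give replicate numbers, and the sources used here do not say whether these RNP-IPs came from separate cultures, so that the p-values measure only the spread between these samples, which may be technical.

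Tests were made with limma 3.58.1 in R 4.3.3 (functions lmFit and eBayes, all probe sets) with Benjamini-Hochberg adjustment over all probe sets. The first comparison set 2 arrays against 3, with 3 residual degrees of freedom, as the study did, and a fit with 3 groups and 2 residual degrees of freedom gave the others. The steps were tested on simulated data. Folds against a group near background (every array of it below a log2 signal of 5) are given as bounds against 5, and detection calls were not used here.

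Names came from the array's annotation and the RefSeq genes of GRCm38.p6, which served for names only: 34958 probe sets had 1 gene, 932 several and 9211 none. Genes given with all their values were those called in any comparison and the 3 of each role group with the largest absolute log2 fold change, Hnrnpd, and the most changed called genes of the other decay genes. Lsm4, Lsm6, Lsm7 and Cnot8 were added after their values were seen. The genes, the lists and the rule were chosen with earlier results of these data known. Alternatives were median centring, cyclic loess, a filter on dim probe sets, an intensity trend in eBayes, other choices of probe set, other thresholds, arrays left out and a replicate block. The authors' comparisons were not used, and no sequences are shown.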

Additional observations from a re-analysis of the deposited data

How the results depend on the processing

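The counts of called genes are small and most alternatives moved some of them by a gene or more. At an adjusted p below 0.05 all counts were 0. With probe sets of mean log2 of at least 6, the decay genes had 0 called higher against the 3 controls, 1 higher against the uninduced-labelled RNP-IPs and, for induced-labelled RNP-IPs against total RNA, 5 lower. Taking the probe set of largest fold for each gene, there were 2 higher against the 3 controls, 2 higher and 5 lower for the induced-labelled RNP-IPs and 2 lower for uninduced-labelled RNP-IPs against total RNA, and 2 higher among the other decay genes, and Cnot7 turned to 3.75. With the mean of all probe sets there was 1 lower against the 3 controls, 1 lower against the uninduced-labelled RNP-IPs and 2 lower for these against total RNA, with 0 higher and 0 lower among the other decay genes, and Parn was no longer called (-1.06). At a fold of at least 2 there were 3 higher against the 3 controls, and 6 lower in induced-labelled RNP-IPs and 3 lower in uninduced-labelled RNP-IPs against total RNA. Cyclic loess gave 2 lower among the other decay genes, and the decay genes' median was -0.38, against -0.45 as deposited and -0.46 with median centring. Of the calls over all genes 35.8% were higher as deposited and 41.2% after cyclic loess. Without total RNA, 2 were higher against the remaining controls. The cause of these shifts was not tested.

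Leaving out each RNP-IP in turn gave 1 to 2 genes higher and 0 to 5 lower against the 3 controls, 1 to 2 higher and 1 to 3 lower against the uninduced-labelled RNP-IPs, 1 to 2 higher and 2 to 8 lower for induced-labelled RNP-IPs against total RNA, and 0 higher and 0 to 3 lower for uninduced-labelled RNP-IPs. The 5 lower were Cnot6, Cnot7, Dis3, Pan3 and Upf2, without induced-labelled RNP-IP 2. The other decay genes had 0 higher and 2 to 6 lower. Where a label kept 1 array, it was assumed to vary like the others.

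The replicate numbers were not taken as pairs in the main fits. Replicate differences of the labels correlated at -0.50 across all probe sets, which cannot show whether same-numbered RNP-IPs were prepared together. With the replicate number as a block 0 genes were called higher and 0 lower against the uninduced-labelled RNP-IPs. With the pairing crossed, an alternative chosen after seeing the data, 2 were higher and 2 lower. Also chosen after seeing the data were the following. Without the RNP-IPs of low signal at the 5' ends (induced-labelled RNP-IP 2 and uninduced-labelled RNP-IP 1), Dis3 and Parn (-1.10) were not called against the remaining controls. Pan2 then had 3.69 in the induced-labelled RNP-IP, near background, against 5.02 in the uninduced-labelled RNP-IP and 5.65 in total RNA. Without the RNP-IPs of high signal, Dis3 was at -2.26 and Parn at -2.24, and neither was called. Of 419 values of 25 named genes under 17 alternatives, 387 kept their direction and their side of the threshold, 18 lost a call, 13 gained one and 1 turned.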
